A study of Mus musculus with 2 samples.

Results

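Frizzled receptors and WNT co-receptors were examined as transcripts in mouse organoid epithelium. The 10 genes, taken as a list of receptor names from the 32285 genes of the count matrix, were Fzd1, Fzd3, Fzd5, Fzd6, Fzd7, Fzd8, Lrp5, Lrp6, Ror2 and Ryk. The rule that picks them uses no measured value, but earlier results of these data were known when the list was made. They were compared between squamous cells of esophageal organoids and columnar cells of stomach organoids, and among clusters of the squamous cells. Single-cell RNA sequencing counted unique molecular identifiers (UMIs), each of which stands for 1 captured transcript read at its 3′ end. Organoids are epithelial cultures grown in a gel from tissue stem cells, and both kinds were harvested with no drug treatment named in the labels. The labels do not give the genotype, sex or age of the animals behind these samples. According to the study's methods, cells from organoids of several mice were combined for each tissue, and the stomach organoids came from glands of the corpus. The stomach medium held conditioned media with WNT3A and R-spondin1, whereas the esophageal medium listed neither and held forskolin. Tissue and medium therefore differed together and cannot be told apart.

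WNT proteins are secreted lipid-bearing ligands. In the canonical branch a WNT joins a Frizzled, a receptor with several membrane passes, to Lrp5 or Lrp6, single-pass co-receptors, and the complex recruits Dishevelled and stabilises β-catenin. R-spondins, bound by Lgr receptors, block the ubiquitin ligases Rnf43 and Znrf3, which otherwise remove Frizzleds from the surface. Ror2, a receptor tyrosine kinase, and Ryk, a WNT receptor with a kinase domain thought to be inactive, serve branches that act on cell polarity and movement. Canonical WNT signals maintain stem cells of the stomach glands, and Frizzled6 is known for planar polarity in skin and hair.

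Each tissue was 1 sample, and p-values are left out since differences could not be set against a replicate. Limits on genes, UMIs and mitochondrial share, with a call from 6 keratins, left 702 squamous cells of the esophageal tag with 18456220 UMIs and 46 columnar cells of the stomach tag with 2469229 UMIs. Their median depths were 23460 and 59576 UMIs. All 1099 barcodes were distinct, and 0 were shared by the tags. Levels are in CPM, counts of a gene scaled to a fixed total of 1000000 UMIs in the group, and all intervals are 95% intervals for counting error only. The lineage labels were checked on markers outside the call. Trp63, a squamous basal factor, was at 121 CPM in the squamous and 1.62 CPM in the columnar cells, and Cldn18, a gastric claudin, was at 3.9 and 251 CPM. The summed list of basal markers was at 4753 and 208 CPM, and that of columnar markers at 63.1 and 2533 CPM. Not every member followed its list. The columnar markers Tff1 (28.2 and 10.9 CPM) and Gkn1 (2.33 and 1.62 CPM) were higher in squamous cells, and the basal marker Itga6 was at 145 and 71.7 CPM. Muc5ac, the pit cell mucin, had 0 UMIs in the columnar cells. Fibroblast, smooth muscle, endothelial and erythroid marker lists summed to between 0 and 8 UMIs in either group. Of 6 immune markers, Ptprc, Cd3e, Cd79a and Tyrobp had 0 or 1 UMI in each group, while Cd68, a lysosomal protein, and Lyz2 were present in the columnar cells at 66.8 and 64.4 CPM.

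The short stretches through which these receptors hand on the signal are shown for 7 of the receptors, because they tell apart the Frizzleds, which bind Dishevelled, and the LRP co-receptors. They are coding sequence of the GENCODE M21 annotation on build GRCm38. In each Frizzled the capitals mark the codons of the lysine, threonine and tryptophan of the motif that binds Dishevelled, just after the last membrane pass. In Lrp5 and Lrp6 the whole printed run, in capitals, encodes a proline-rich PPPSP motif, whose serine is phosphorylated in the active co-receptor.
Fzd1: AAGACActgaattccTGG
Fzd3: AAGACAtgctttgaaTGG
Fzd5: AAGACTctggagtctTGG
Fzd6: AAGACGtgcacagaaTGG
Fzd7: AAGACCctgcagtcaTGG
Lrp5: CCACCCCCGTCCCCG
Lrp6: CCACCACCATCGCCT
The stretches were found by a search for the 3 marked residues, so these are the same in the 5 Frizzleds shown by design. Between threonine and tryptophan, the first and last residues were shared by Fzd1, Fzd5 and Fzd7. Fzd3 and Fzd6 shared other residues at these places, and the middle residue differed in all 5. The protein ran on for 17 residues after the motif in Fzd1 and Fzd7, 55 in Fzd5, 159 in Fzd3 and 206 in Fzd6. The PPPSP motif was found 2 times in exact form in each of Lrp5 and Lrp6, and the first is shown.

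In the main comparison 9 of the 10 receptors were measured, that is, had at least 10 UMIs over both groups. At a fold of 2 or more, Fzd1, Fzd5 and Lrp5 were higher in stomach columnar cells and Fzd8 in esophageal squamous cells, and 5 receptors (Fzd3, Fzd6, Fzd7, Lrp6 and Ryk) differed by less. Over all 12717 measured genes, 19.4% passed that fold toward the stomach and 14.8% toward the esophagus, so 3 of 9 and 1 of 9 are read against those shares and nothing particular to the receptors is drawn from them. The median log2 ratio of stomach over esophagus was 0.66 over the 9 receptors and 0.11 over all measured genes. The interval of the ratio lay above 1 for 5 receptors (Fzd1, Fzd3, Fzd5, Lrp5 and Lrp6) and below 1 for Fzd6, and included 1 for Fzd7, Fzd8 and Ryk.

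**Figure D1:**
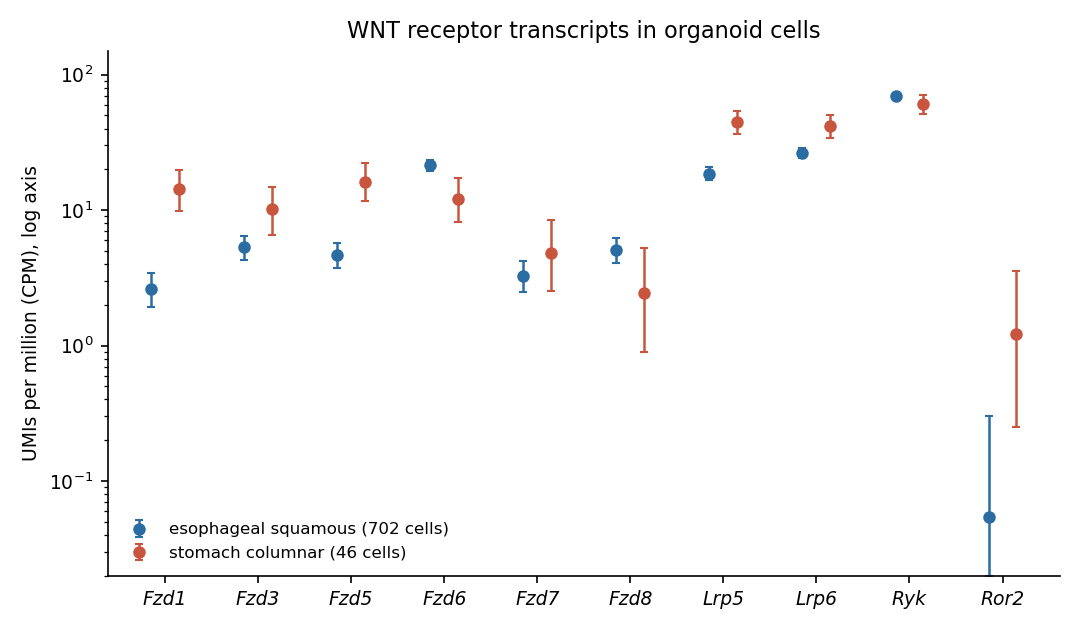
Level of each of the 10 receptors (CPM, logarithmic axis) in 702 esophageal squamous cells (blue) and 46 stomach columnar cells (red), with 95% counting intervals and 1 sample per group. Fzd1, Fzd5 and Lrp5 lay higher in the stomach without overlap of the intervals, Ryk was the most abundant in both groups, and the Ror2 interval in the esophagus runs below the axis.

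Among the Frizzled receptors, Fzd1, a receptor for canonical WNTs, differed most between the groups. It had 48 UMIs in the squamous cells, or 2.6 CPM (1.92 to 3.45), and 35 UMIs in the columnar cells, or 14.2 CPM (9.87 to 19.7). The columnar level was 5.45 times the squamous one, with an interval of 3.42 to 8.6. No columnar cell held more than 3 of the 35 UMIs, and 23 of 46 columnar cells held at least 1. Fzd1 lies on chromosome 5 from 4753839 to 4758035 on the minus strand, and its coding sequence is in 1 exon.

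Fzd5, which is essential for the yolk sac and for Paneth cells of the mouse intestine, had 86 UMIs (4.66 CPM, 3.73 to 5.75) in squamous and 40 (16.2 CPM, 11.6 to 22.1) in columnar cells. The columnar level was 3.48 times the squamous one (2.33 to 5.12), and the intervals of the levels did not overlap. It lies on chromosome 1 from 64730558 to 64737751, minus strand. Both ratios fell when every cell limit was lifted at the same time. The limit of 80000 UMIs per cell was not tested alone. The 41 columnar cells of the stomach tag over that limit, with 5207798 UMIs, had Fzd1 at 7.49 CPM (5.33 to 10.2) and Fzd5 at 8.64 CPM (6.3 to 11.6). The 22 squamous cells of the esophageal tag over it had Fzd1 at 4.99 CPM (2.49 to 8.93) and Fzd5 at 13.2 CPM (8.81 to 18.9). Over the mitochondrial limit, 108 squamous cells of that tag had each gene at 10.1 CPM (4.07 to 20.9). The 13 columnar cells of the stomach tag over the mitochondrial limit had 1 UMI of Fzd1 and 4 UMIs of Fzd5. With no limits the log2 ratio was 1.63 in place of 2.45 for Fzd1 and 0.99 in place of 1.80 for Fzd5, which ended the 2-fold call of Fzd5.

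Fzd3, known from axon guidance and neural tube closure, had 98 UMIs (5.31 CPM, 4.31 to 6.47) in squamous and 25 (10.1 CPM, 6.55 to 14.9) in columnar cells. Its ratio was 1.91 (1.18 to 2.98), just under the 2-fold line. When each cell was thinned to 10000 UMIs, the log2 ratio went from 0.93 to -0.07, on 31 and 3 UMIs. Weighting the same deep cells equally, which is what thinning gives on average, left 0.43. Fzd3 lies on chromosome 14 from 65192449 to 65262463, minus strand.

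Fzd6 was the Frizzled with the most UMIs in the squamous cells and went the other way. It had 395 UMIs (21.4 CPM, 19.3 to 23.6) in squamous and 30 (12.1 CPM, 8.2 to 17.3) in columnar cells. The squamous level was 1.76 times the columnar one, and the ratio of stomach over esophagus was 0.568 (0.378 to 0.823). The intervals of the levels did not overlap, and the log2 ratio stayed between -1.02 and -0.73 in every alternative run, around a main value of -0.82. The gene is on chromosome 15 from 39006034 to 39038188, plus strand.

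Fzd7, a receptor linked to stem cells of the mouse stomach and intestine, was low in both groups. It had 60 UMIs (3.25 CPM, 2.48 to 4.18) in squamous and 12 (4.86 CPM, 2.51 to 8.49) in columnar cells. The ratio of 1.49 had an interval of 0.732 to 2.81, and with no limits its direction turned (log2 ratio -0.31 against 0.58). A single columnar cell held 3 of the 12 UMIs, and the 2 groups were not told apart at this depth. Fzd7 is on chromosome 1 from 59482424 to 59486955, plus strand.

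Fzd8, the closest relative of Fzd5 among the Frizzleds, had 93 UMIs (5.04 CPM, 4.07 to 6.17) in squamous and 6 UMIs in columnar cells, each in a different cell (2.43 CPM, 0.892 to 5.29). Its squamous level was 2.07 times the columnar one, but the ratio of stomach over esophagus, 0.482, had an interval of 0.173 to 1.09 that included 1. The 2-fold call was lost under a stricter keratin call, and after thinning the log2 ratio was -0.35 in place of -1.05, on 25 and 2 UMIs. A call that rests on 6 UMIs in 1 group was therefore not resolved at this depth.

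The summed Frizzled family, Fzd1 to Fzd10, had 1016 UMIs (55 CPM, 51.7 to 58.5) in squamous and 221 UMIs (89.5 CPM, 78.1 to 102) in columnar cells. The ratio was 1.63 (1.4 to 1.88), which lay between the ratios of its members. With no limits the log2 ratio of the sum fell from 0.70 to 0.31. The makeup of the family differed. Fzd6 gave 38.9% of Frizzled UMIs (35.9 to 42) in squamous cells and 13.6% (9.35 to 18.8) in columnar cells. In columnar cells Fzd4 gave 24.4% (18.9 to 30.6), Fzd5 18.1% (13.3 to 23.8) and Fzd1 15.8% (11.3 to 21.3). These 3 genes gave 7.87%, 8.46% and 4.72% in squamous cells. The columnar family thus had no single leading gene, whereas Fzd6 led in the squamous one. One columnar cell held 15 of the 54 Fzd4 UMIs and 23 of the 221 Frizzled UMIs.

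**Figure D2:**
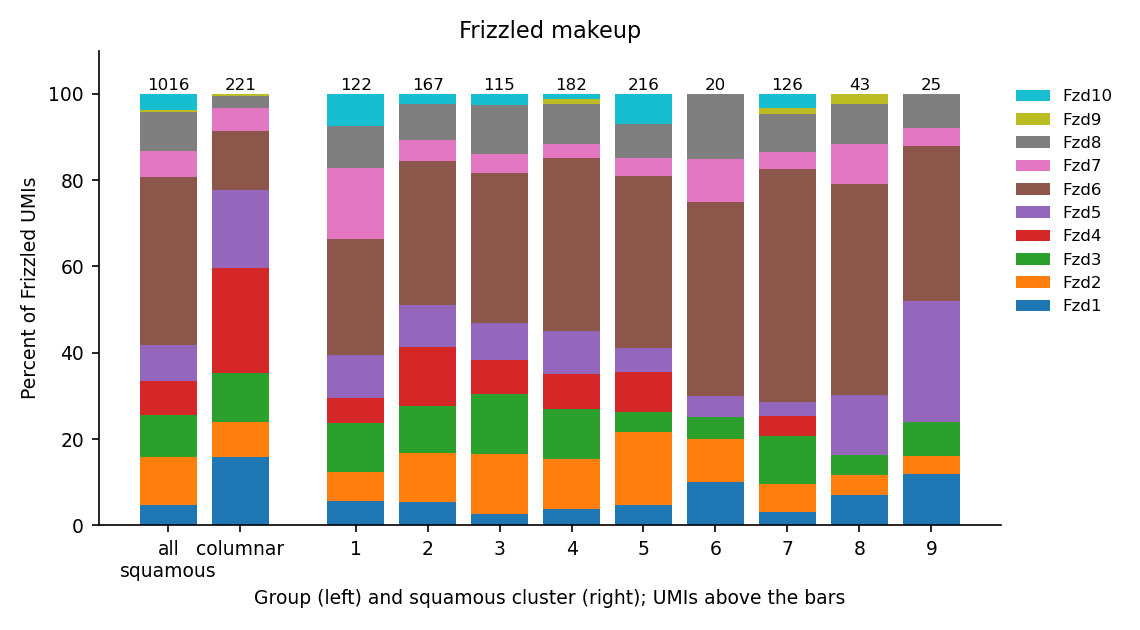
Share of Frizzled UMIs (percent) from each of the 10 Frizzled genes in all squamous cells, in columnar cells and in each of 9 squamous clusters, with the number of Frizzled UMIs above each bar. Fzd6 took 38.9% in squamous and 13.6% in columnar cells, and its share was 54% in cluster 7 and 27% in cluster 1.

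Both canonical co-receptors were higher in the columnar cells. Lrp5, also known from bone mass and retinal vessels, had 343 UMIs (18.6 CPM, 16.7 to 20.7) in squamous and 110 (44.5 CPM, 36.6 to 53.7) in columnar cells, a ratio of 2.4 (1.92 to 2.98). Lrp6, its close relative with the broader role in the embryo, had 488 UMIs (26.4 CPM, 24.1 to 28.9) and 103 UMIs (41.7 CPM, 34 to 50.6), a ratio of 1.58 (1.26 to 1.95). For both genes the intervals of the levels did not overlap between the groups. Lrp6 gave 58.7% (55.3 to 62.1) of the UMIs of the pair in squamous cells and 48.4% (41.5 to 55.3) in columnar cells, and these intervals met at 55.3%. At least 1 UMI of the pair was seen in all 46 columnar cells and in 358 of 702 squamous cells, with depths that differed as given above. Lrp5 is on chromosome 19 from 3584828 to 3686564 and Lrp6 on chromosome 6 from 134446476 to 134566965, both on the minus strand.

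The Lrp ratios moved under 2 settings. With no limits, Lrp5 had a log2 ratio of 0.89 in place of 1.26, which ended its 2-fold call. After thinning to 10000 UMIs per cell the log2 ratio was 0.48 for Lrp5, 0.07 for Lrp6 in place of 0.66, and 0.26 for their sum in place of 0.94. That was 1 random draw, in which the pair had 26 UMIs over 44 columnar and 214 over 433 squamous cells. The average over all possible draws was 39.5 and 200.1 UMIs, and the equal weighting that corresponds to it gave log2 ratios of 1.26, 0.70 and 0.96.

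Ryk, the most abundant receptor of the list in both groups, did not show a difference beyond counting error. It had 1286 UMIs (69.7 CPM, 65.9 to 73.6) in squamous and 150 UMIs (60.7 CPM, 51.4 to 71.3) in columnar cells. The ratio of stomach over esophagus was 0.872, and its interval of 0.731 to 1.03 bounds any fold at these counts. The log2 ratio stayed between -0.31 and -0.11 in every alternative run. Ror2, the receptor kinase best known as a WNT5A receptor, had 1 UMI in the squamous and 3 UMIs in the columnar cells and did not count as measured. The ratio from these counts was 22.4, with a counting interval of 1.8 to 1177, and 1 columnar cell held 2 of the 3 UMIs. Ryk is on chromosome 9 from 102834917 to 102908305, plus strand, and Ror2 on chromosome 13 from 53109312 to 53286124, minus strand.

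Within a group, UMIs from 3′ ends can be set side by side for genes of any transcript length, since each transcript is counted 1 time, although capture may differ between genes. In squamous cells the order of the CPM levels was Ryk, Lrp6, Fzd6, Lrp5, Fzd3, Fzd8, Fzd5, Fzd7, Fzd1 and Ror2. Ryk stood 2.64 times above Lrp6 (2.37 to 2.93) and Lrp5 stood 3.5 times above Fzd3 (2.79 to 4.43), which left Ryk, Lrp6, Fzd6 and Lrp5 above the rest. The neighbours Fzd6 and Lrp5, Fzd3 and Fzd8, Fzd8 and Fzd5, and Fzd7 and Fzd1 were not resolved. In columnar cells the order was Ryk, Lrp5, Lrp6, Fzd5, Fzd1, Fzd6, Fzd3, Fzd7, Fzd8 and Ror2. There Lrp6 stood 2.58 times above Fzd5 (1.77 to 3.81). Lrp5 and Lrp6, each step from Fzd5 to Fzd3, Fzd7 and Fzd8, and Fzd8 and Ror2 were not resolved. Fzd1 moved from place 9 to place 5 and Fzd6 from place 3 to place 6.

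Shares of cells with a UMI were compared in 1 random draw of 10000 UMIs per cell, which left 433 of 702 squamous and 44 of 46 columnar cells. At that depth 1 UMI is a level of 100 CPM, so a share follows the level and the chance of a read. Ryk was seen in 48.7% (43.9 to 53.5) of squamous and 45.5% (30.4 to 61.2) of columnar cells. Fzd6 was seen in 19.2% (15.6 to 23.2) and 11.4% (3.79 to 24.6), and Fzd5 in 5.31% (3.4 to 7.86) and 20.5% (9.8 to 35.3). Before thinning, these shares were 57.4% and 84.8% for Ryk, 35.3% and 52.2% for Fzd6, and 10.7% and 41.3% for Fzd5. A UMI of any Frizzled was seen in 43.6% (38.9 to 48.5) of squamous and 56.8% (41 to 71.7) of columnar cells. At least 2 different Frizzled genes were seen in 8.31% (5.89 to 11.3) and 25% (13.2 to 40.3), and in this 1 draw the intervals did not overlap. Over all draws these shares averaged 9.32% and 21%, closer together than in the draw, so the gap between the intervals is not relied on. Before thinning they were 33% and 82.6%. A Frizzled together with Lrp5 or Lrp6 was seen in 17.1% (13.7 to 21) and 29.5% (16.8 to 45.2) of cells, where the product of the separate shares was 15.9% and 24.5%. The draw was low for the Lrp pair in columnar cells, seen in 43.2% against an average of 59.4%. Over all draws the joint share averaged 16% and 36.3%, beside products of 15% and 34.2%. Before thinning the joint shares were 41.6% and 95.7%.

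Free RNA in the droplets was gauged with genes of the other lineage. At 10000 UMIs, Cldn18 was seen in 3.93% (2.3 to 6.21) and Muc1, an epithelial mucin of the stomach, in 4.85% (3.03 to 7.32) of squamous cells. Fzd1 at 2.31% and Fzd7 at 3% of squamous cells lay at or below those shares, so no expression by single cells is read from them. Both gauge genes are far more abundant than Fzd1 and Fzd7 in their home cells, and the summed levels below put the carry-over lower. Fzd3, Fzd5 and Fzd8, at 6%, 5.31% and 5.08%, lay within the gauge intervals. In columnar cells Trp63 and Col17a1 were seen in 0 of 44 cells, which allows up to 8.04%, but Krt17, an abundant squamous keratin, was seen in 38.6% (24.4 to 54.5). Of the single receptors, Ryk alone was above the Krt17 share there in this draw, and within its interval. Over all draws Ryk averaged 43.5%, Lrp5 38% and Lrp6 35.8% of columnar cells, so this share did not set Ryk apart. Krt17 is far more abundant in its home cells, at 2949 CPM in squamous cells beside 69.7 CPM of Ryk. Its share is therefore no floor for the receptors. The summed levels bear on this too. The marker lists and call keratins of the other lineage stood at no more than 3.99% of their home level in squamous cells and 6.93% in columnar cells, except the suprabasal list, at 18.2% in columnar cells. Carry-over at the first of these shares would give 0.567 CPM of the 2.6 CPM of Fzd1 and 0.194 CPM of the 3.25 CPM of Fzd7 in squamous cells. In columnar cells it would give 1.48 CPM of the 12.1 CPM of Fzd6 at 6.93%, and 3.89 CPM at the 18.2% of the suprabasal list. For Ryk there it would give 4.83 CPM of 60.7 CPM at 6.93%, and 12.7 CPM at 18.2%. At 6.93% it would give 1.29 CPM of the 44.5 CPM of Lrp5 and 1.83 CPM of the 41.7 CPM of Lrp6. The shares are sums over lists, and single genes went past them. Tff1, a pit cell peptide, was at 28.2 CPM in squamous and 10.9 CPM in columnar cells.

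The squamous cells were grouped into 9 clusters built without the WNT genes, the keratins of the call, mitochondrial and ribosomal protein genes. The clusters were numbered by rising levels of suprabasal and differentiated markers over basal ones. Cluster 1 (59 cells) was wound-like, led by U90926, Cald1 and Inhba, and had the highest basal list level. Cluster 2 (70 cells) was a cycling cluster led by histone genes, Pclaf and Aurkb, and cluster 3 (55 cells) was S phase-like, with Dtl, Hells and Cdca7 among its leading genes beside Tns1. The S phase list was at 891 CPM in cluster 3 and 805 CPM in cluster 2, so its level hardly told these clusters apart. No gene of that list was among the 10 leading genes of cluster 3. Cluster 4 (113 cells) was basal-like by Krt15 and was also led by the interferon-response genes Oasl2 and Rtp4, and cluster 5 (63 cells) was G2/M-like, led by Aspm and Knl1. Cluster 7 (61 cells) was suprabasal-like, with Krtdap and Zfp750, and cluster 8 (60 cells) was suprabasal-like, led by S100a8, with a median of 5342 UMIs. Clusters 6 (103 cells) and 9 (118 cells) stay unnamed because of their depth, with medians of 1630 and 2544 UMIs. Cluster 6 was led by Clu, Tff1 and Gkn3, genes of the stomach, and cluster 9 by Clca3b and Psca, with the differentiated list 32.5 times its level in the other squamous cells.

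Across these clusters 4 receptors had the 100 UMIs needed for the comparison, Fzd6, Lrp5, Lrp6 and Ryk, and all 4 varied by at least 2 times between the highest and the lowest cluster. Over all 8707 genes with as many UMIs, 82.7% did so, and the 4 of 4 are near that background. The lowest cluster was cluster 9 for each of them. Without the 3 shallow clusters (6, 8 and 9), 2 of the 4 varied by that much, beside 41.4% of genes. At a coarser clustering with 5 clusters, 1 of the 4 did, beside 54.3% of genes. The clusters are parts of 1 sample, and their differences are given as levels with counting intervals.

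Fzd6 ran from 7.97 CPM (3.64 to 15.1) in cluster 9 to 31 CPM (24.1 to 39.3) in the suprabasal-like cluster 7. In cluster 7 it was 1.54 times its level in the other squamous cells (1.17 to 2.01), and in the wound-like cluster 1 it was 0.619 times (0.419 to 0.884), at 13.9 CPM. Its share of Frizzled UMIs was 54% (44.9 to 62.9) in cluster 7 and 27% (19.4 to 35.8) in cluster 1. The 2 clusters therefore stood at opposite ends by level among the deep clusters and by share of the family. Both were deep, with medians of 37708 and 45357 UMIs.

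Fzd7 had its highest level in cluster 1, with 20 of its 60 squamous UMIs, or 8.44 CPM (5.15 to 13). That was 3.39 times the 2.49 CPM of the other squamous cells (1.88 to 5.94), and no other cluster had over 9 Fzd7 UMIs. Fzd3 was highest in the S phase-like cluster 3, at 10.8 CPM (6.17 to 17.5), 2.23 times its level elsewhere (1.22 to 3.85). Fzd5 was lowest in cluster 7, with 4 UMIs and 0.361 times its level elsewhere (0.0962 to 0.961). For Fzd1 and Fzd8 the interval of each cluster against the other squamous cells included 1. These clusters were singled out after their values were seen, over 9 clusters and 10 receptors.

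By summed UMIs, Lrp5, Lrp6 and Ryk were all highest in cluster 3. Lrp5 was at 34.4 CPM there (25.6 to 45.2), 2 times its level in the other squamous cells (1.45 to 2.7). Lrp6 was at 37.8 CPM (28.5 to 49), 1.48 times (1.1 to 1.96), and Ryk at 95.1 CPM (80.01 to 112), 1.41 times (1.17 to 1.68). In cluster 2, with the S phase list nearly as high, Lrp5, Lrp6 and Ryk were at 17, 22.3 and 70.8 CPM. In cluster 9 all 3 were low, at 7.09, 12.4 and 24.8 CPM, or 0.366, 0.453 and 0.342 times their level elsewhere. The Ryk range was set mostly by the shallow clusters. Its highest level was 3.83 times the lowest over 9 clusters and 1.37 times over the 6 deep ones, and 1.81 times with equal weight for each cell. For Lrp6 equal weighting moved the range from 3.04 to 11.8 times. With equal weights Lrp5 was still highest in cluster 3, but Lrp6 was highest in the shallow cluster 6, at 51.8 CPM against 40.01 CPM in cluster 3, and Ryk in cluster 5, at 75.6 CPM against 73.6 CPM. Lrp6 took 67.9% (58.2 to 76.7) of the pair in cluster 1 and 48.1% (38.4 to 58) in cluster 7.

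**Figure D3:**
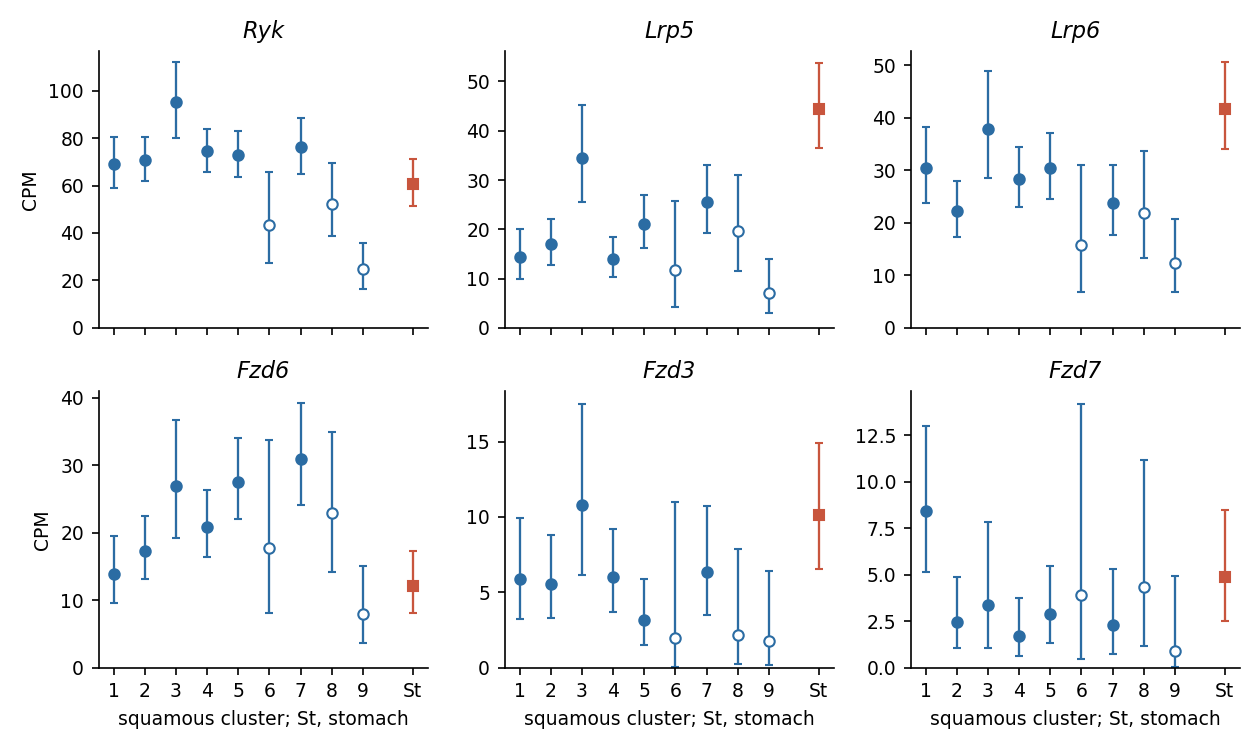
Level (CPM, linear axes from 0) of 6 receptors in 9 squamous clusters (blue) and in stomach columnar cells (red square, St), with 95% counting intervals. Open circles are clusters 6, 8 and 9, whose median depth was low. By summed UMIs, Ryk, Lrp5 and Lrp6 were highest in cluster 3, Fzd6 in cluster 7 and Fzd7 in cluster 1, and the columnar level of Lrp5 lay above every squamous cluster, with an interval that overlaps that of cluster 3.

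Profiles over the 9 clusters and the columnar group gave 10 points for each gene, which share depth and sample. Among 9242 genes, those most like Ryk by Pearson correlation of log2(CPM + 1) were Dcaf17 (r = 0.983), Agtpbp1 (r = 0.981) and Usp36 (r = 0.978). Those most like Lrp6 were Furin (r = 0.983), Dennd4c (r = 0.972) and Pias2 (r = 0.971). Genes with profiles like that of Lrp5 included AC149090.1 (r = 0.933) and mt-Nd3 (r = 0.929), and those most like Fzd6 were Ptprf (r = 0.955), B4gat1 (r = 0.951) and Nif3l1 (r = 0.943). Among the receptors themselves, the correlation was 0.84 for Lrp5 and Lrp6, 0.81 for Ryk and Lrp6, and 0.37 for Lrp6 and Fzd6. These are descriptions over 10 profiles, and the shallow clusters weigh on all of them.

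**Figure D4:**
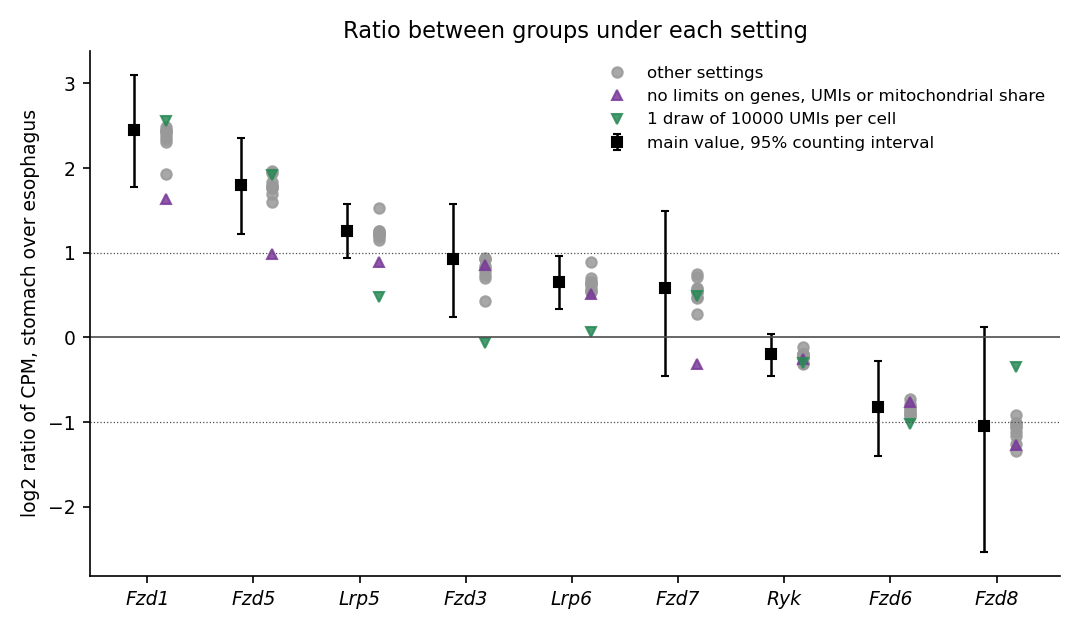
Log2 ratio of CPM, stomach columnar over esophageal squamous, for the 9 measured receptors. Black squares are main values with 95% counting intervals and the other symbols are alternative settings, with dotted lines at 2-fold. Fzd1 stayed above 1 in every setting shown, Fzd5 reached 0.99 and Lrp5 0.48, and Fzd6 stayed below 0.

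Fzd1 and Fzd5, the Frizzleds of the list with a 2-fold call toward the stomach, and Ryk as a gene at a like level in both groups, are shown with the 250 bases before their RefSeq start, from build GRCm38.p6, and capitals mark 2 motifs. RefSeq promoters were matched for 5 of the 10 receptors, which also include Fzd7 and Ror2, and the other members are Fzd3, Fzd6, Fzd8, Lrp5 and Lrp6. One motif is the core bound by TCF/LEF factors, which act with β-catenin (CTTTGA, either strand). The other is the GC box (GGGCGG, either strand). The motifs do not overlap each other.
Fzd1 promoter, chr5:4758217-4758466, minus strand: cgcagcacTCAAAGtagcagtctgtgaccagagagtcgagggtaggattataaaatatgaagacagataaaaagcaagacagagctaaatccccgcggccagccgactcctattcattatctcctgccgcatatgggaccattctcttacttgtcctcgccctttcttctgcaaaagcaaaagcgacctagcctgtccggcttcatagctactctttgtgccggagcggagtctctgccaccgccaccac
Fzd5 promoter, chr1:64737751-64738000, minus strand: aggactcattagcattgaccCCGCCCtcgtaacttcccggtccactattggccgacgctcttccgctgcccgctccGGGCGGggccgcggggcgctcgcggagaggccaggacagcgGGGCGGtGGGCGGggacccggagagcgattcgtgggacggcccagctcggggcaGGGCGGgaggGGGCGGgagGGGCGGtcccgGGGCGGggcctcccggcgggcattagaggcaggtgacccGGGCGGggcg
Ryk promoter, chr9:102834670-102834919, plus strand: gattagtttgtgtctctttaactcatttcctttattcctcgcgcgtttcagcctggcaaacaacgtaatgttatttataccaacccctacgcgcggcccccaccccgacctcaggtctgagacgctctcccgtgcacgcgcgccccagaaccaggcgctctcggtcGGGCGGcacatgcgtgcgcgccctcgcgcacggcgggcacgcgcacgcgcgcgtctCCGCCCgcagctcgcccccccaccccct
The Fzd1 window held 1 TCF/LEF core and 0 GC boxes at a GC content of 51.2%. The Fzd5 window held 9 GC boxes at 76.4% GC and the Ryk window 2 at 65.2%, and neither held the TCF/LEF core. Of 32851 mouse promoter windows of that length, 13.8% held the TCF/LEF core and 32.7% the GC box, and the median GC content was 52.4%. A match is a description of the letters, and these windows were not measured by any assay here.

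Partner genes of the receptors were taken from 8 lists with 103 genes, of which 60 were measured. Of these, 11 were higher in the stomach by a fold of 2 or more, 15 in the esophagus and 34 lay in between, beside 19.4% and 14.8% of all measured genes, and the median log2 ratio was 0.05. In the list of R-spondin receptors and Frizzled turnover, 4 of 5 measured genes were higher in the stomach and 0 in the esophagus, with a median log2 ratio of 1.49. Lgr5, the R-spondin receptor of gastric stem cells, had 10 UMIs (0.542 CPM) in squamous and 125 (50.6 CPM) in columnar cells, 93.4 times higher (49.1 to 199.6). Rnf43, which removes Frizzleds and is itself a WNT target, was at 5.15 and 53.1 CPM, 10.3 times higher (7.85 to 13.6). Lgr4 was at 7.04 and 19.8 CPM, 2.82 times higher (1.99 to 3.94).

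Among the other receptors, 2 of 6 measured genes were higher in each direction. Fzd4, the norrin receptor, was at 4.33 CPM in squamous and 21.9 CPM in columnar cells, 5.05 times higher (3.5 to 7.21), with 27.8% of the columnar UMIs in 1 cell. Tspan12, the tetraspanin that joins Fzd4 in norrin signaling, was at 1.19 and 20.7 CPM, 17.3 times higher (10.3 to 30). Ptk7, a polarity receptor, was at 31.8 and 7.29 CPM, 4.36 times higher in the esophagus (2.74 to 7.41). Fzd10, with 37 UMIs in squamous and 0 in columnar cells, stayed under the 2-fold line, since a count of 0 allows 1.21 CPM.

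Inside the cell, 13 of 14 genes of Dishevelled and the LRP kinases were within 2-fold, with a median log2 ratio of 0.15. Dvl2, a Dishevelled, was at 7.69 and 10.5 CPM, a ratio of 1.37 (0.864 to 2.09). Csnk1e and Csnk1g3, casein kinases that act on Dishevelled and on LRP6, had ratios of 1.96 (1.58 to 2.42) and 1.54 (1.26 to 1.87). The planar polarity list had 2 of 9 measured genes higher in the esophagus and 0 in the stomach. There Celsr2, an adhesion receptor of the polarity complex, was at 40.2 CPM in squamous and 6.07 CPM in columnar cells, 6.62 times higher in the esophagus (3.99 to 11.9), and Prickle3 at 13.4 and 3.24 CPM, 4.13 times (2.06 to 9.67). Vangl2, a core polarity protein, was at 11.2 and 6.07 CPM, 1.84 times higher in the esophagus (1.09 to 3.34), with 40.0% of its columnar UMIs in 1 cell.

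At the cell surface, 2 of 7 heparan sulfate proteoglycans passed the 2-fold line toward the esophagus and 0 toward the stomach. These were Gpc2, with 38 UMIs in squamous and 1 in columnar cells, and Gpc6, with 18 and 1. The intervals of both ratios of esophagus over stomach included 1 (0.859 to 206 and 0.38 to 100.3), so neither call was resolved. Both genes were named after their values were seen. The members named by the rule of largest fold at 10 CPM or more all lay within 2-fold. Sdc4 was at 316 and 186 CPM, 1.7 times higher in the esophagus (1.54 to 1.87), Sdc1 at 284 and 183 CPM, 1.55 times (1.41 to 1.71), and Gpc1 at 12.6 and 7.69 CPM, 1.64 times (1.03 to 2.77). Of 5 measured genes that fold or inhibit the LRP co-receptors, Mesd, the LRP chaperone, was at 27.8 and 30.4 CPM, a ratio of 1.09 (0.846 to 1.39), and Kremen1, a Dickkopf receptor, had a ratio of 1.42 (0.961 to 2.05). Sostdc1, a secreted inhibitor that binds LRP6, had 393 UMIs (21.3 CPM) in squamous and 0 in columnar cells, at least 17.5-fold higher in the esophagus against 3 counts over the columnar group. Of 4 measured Frizzled decoys and maturation genes, 2 were higher in the stomach and 1 in the esophagus. Notum, which removes the lipid of WNTs, was at 0.759 and 29.97 CPM, 39.5 times higher in the stomach (22.1 to 75.8), and Shisa5, of a family that retains Frizzleds in frog, at 75.3 and 148 CPM, 1.97 times (1.75 to 2.21).

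Of the ligands and their secretion genes, 5 of 10 measured were higher in the esophagus and 2 in the stomach. Among the 5, Wnt5a had 40 UMIs in squamous and 1 in columnar cells, and Wnt9a 34 and 2. The intervals of their ratios of esophagus over stomach included 1 (0.907 to 217 and 0.583 to 19.5). Wnt3a, also of the 5, had 75 and 0 UMIs. Of the 2 higher in the stomach, Wnt6 had 96.4% of its 28 columnar UMIs in 1 cell. These 4 genes were named after their values were seen. Wnt4 was at 286 CPM in squamous and 46.2 CPM in columnar cells, 6.2 times higher in the esophagus (5.15 to 7.54), and Wnt10a at 105 and 16.2 CPM, 6.49 times (4.75 to 9.11). Wnt7b, a canonical ligand, was at 5.85 and 59.5 CPM, 10.2 times higher in the stomach (7.88 to 13.2). Within the squamous clusters Wnt10a ran from 163 CPM in cluster 3 to 6.2 CPM in cluster 9, and Sostdc1 from 49.9 CPM in cluster 3 to 2.18 CPM in cluster 8.

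**Figure D5:**
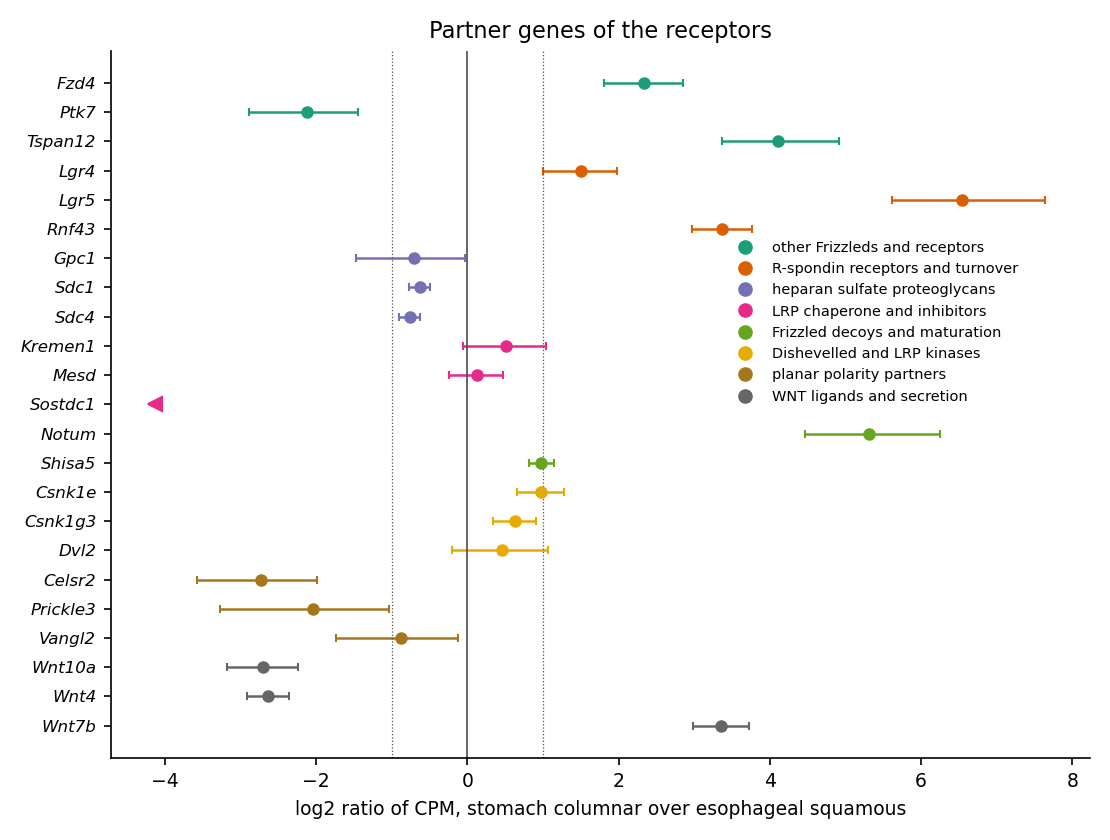
Log2 ratio of CPM, stomach columnar over esophageal squamous, with 95% counting intervals for the named partner genes, colored by list; the arrowhead is a bound for Sostdc1, which had 0 UMIs in columnar cells. Lgr5, Notum, Tspan12, Rnf43 and Wnt7b lay furthest toward the stomach and Sostdc1, Celsr2, Wnt10a and Wnt4 furthest toward the esophagus, while the Dishevelled and kinase genes lay within the dotted 2-fold lines.

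Fzd8 is on chromosome 18 from 9212163 to 9218136, plus strand, in 1 coding exon. The coding sequences of Fzd1, Fzd7 and Fzd8 each lay in 1 exon. The transcripts read for Fzd3 and Fzd6 had 7 exons each and those for Lrp5 and Lrp6 had 23 each, counts that include any untranslated exons.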

How the data were processed

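Single-cell RNA sequencing was carried out on pooled esophageal and stomach organoid cells, told apart by MULTI-seq tags, lipid-anchored DNA barcodes. The authors deposited a matrix of raw UMI counts per gene and barcode, and a table of tag counts with the sample each barcode was given by deMULTIplex. The submitters' processing notes list Cell Ranger 3.1.0 and build mm10. The tag counts were not used beyond the sample assignment. Cells had over 100 and under 8500 genes, no more than 80000 UMIs and a mitochondrial share of 20% or less, limits that the methods state for tissue. They left 765 of 919 esophageal and 90 of 180 stomach barcodes, beside 765 and 90 organoid cells named in the methods. A squamous share of at least 0.75 of 6 keratins (Krt5, Krt14, Krt6a and Krt13 over these with Krt8 and Krt18, at least 5 UMIs) called squamous cells, and at most 0.25 columnar cells. Hybrids were left out, and no doublet caller was used in the main values.

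UMIs were summed per group or cluster. Sums have exact Poisson intervals, ratios conditional binomial intervals and shares Clopper-Pearson intervals, at 95%. A count of 0 was put at 3 counts over the group, or 0.163 CPM for squamous and 1.21 CPM for columnar cells. A gene counted as measured with 10 UMIs over both groups. Clusters used 2000 variable genes, 30 components, 15 neighbours and Leiden resolution 1.0 (0.5 for the columnar cells) in scanpy 1.11.5 (Python 3.11.15). They were rebuilt here, so their names may differ from the study's. TMM factors came from edgeR 4.0.16, as an alternative scaling only, since 1 sample per group allows no test. The interval script was tested on simulated data.

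The named genes were all 10 receptors, up to 3 genes per partner list with the largest fold at 10 CPM or more, and the 3 genes most like each of the 4 most abundant receptors. A gene that this rule names is not reported here. The receptors and lists were chosen with earlier results of these data known. Sequences came from RefSeq and GENCODE M21, and positions from GENCODE M21 (GRCm38, the build of the files).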

Additional observations from a re-analysis of the deposited data

Results flagged for a closer look

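Receptor transcripts were also counted in barcodes that the comparison left out, as the summed level of the 10 receptors, which was 157 CPM in the compared squamous and 208 CPM in the compared columnar cells. In the esophageal tag, 24 columnar cells within the limits had 204 CPM and 32 hybrid cells had 255 CPM. The 24 cells had Fzd1 at 4.82 CPM (1.31 to 12.3) and Fzd3 at 20.5 CPM (11.9 to 32.8). In the stomach tag, 21 squamous cells had 244 CPM and 20 hybrid cells had 219 CPM, on 6 and 11 UMIs. Over the mitochondrial limit, 108 squamous cells of the esophageal tag had 266 CPM, with Fzd6 at 53.5 CPM (37.7 to 73.8) and Lrp6 at 63.6 CPM (46.2 to 85.4), and 13 columnar cells of the stomach tag had 223 CPM. Over the UMI limit, 22 squamous cells had 176 CPM and 41 columnar cells had 172 CPM. Signal above 0 in cells outside the comparison is what singled these values out, and the causes were not tested.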

How the results depend on the processing

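Over 265 recomputed values, 244 were scored as unchanged and 21 as moved. For log2 ratios, shares and cluster ranges, unchanged meant inside the counting interval of the main value. Counts and background percentages were scored by the size of their change. A gene with few UMIs could therefore shift far and still be scored as unchanged. Fzd8 did so after thinning, from a log2 ratio of -1.05 to -0.35, and so did Fzd7 with no limits. Some values could not move, such as the shares of Frizzled UMIs under TMM scaling. A count could be scored as unchanged while its members changed. With no limits Fzd5 and Lrp5 lost their 2-fold calls toward the stomach. After thinning, the 1 receptor called toward the esophagus was Fzd6 (-1.02) in place of Fzd8. Among the single receptors, the direction turned for Fzd7 with no limits (log2 ratio -0.31) and for Fzd3 after thinning (-0.07), neither of which had a 2-fold call. The 3 alternatives without the shallow clusters (group and cluster comparison) and with equal weight for cells of at least 10000 UMIs were chosen after seeing the data. The receptors higher in the esophagus went from 1 to 0 under the stricter keratin call. The log2 ratio of the Frizzled sum was 0.31 with no limits. That of Lrp5 and Lrp6 together was 0.68 with no limits, 1.17 with equal weight for every cell and 0.26 after thinning. Partner genes higher in the stomach numbered 17 after thinning, against 11. Receptors varying across clusters numbered 1 at Leiden resolution 0.5 and 2 without the 3 shallow clusters. The cause of these moves was not tested. Leaving out, for each receptor, the cell with the most UMIs moved no call. TMM scaling shifted all log2 ratios by -0.11. Scrublet called 5 of 1099 barcodes (0.455%), and its removal left 701 of 702 squamous and all 46 columnar cells, so it changed little by design. The share of genes varying across clusters was 54.3% at resolution 0.5. No paired analysis was possible because each group was 1 sample. The 2469229 UMIs of 46 columnar cells limit every ratio, and receptors under about 10 CPM rest on few UMIs there.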

Other observations

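The 41 columnar cells of the stomach tag over the UMI limit, at a median of 122552 UMIs, had Ryk at 59.3 CPM (52.9 to 66.3), Lrp5 at 31.7 CPM (27 to 36.9), Lrp6 at 36.9 CPM (31.8 to 42.5), Fzd6 at 13.2 CPM (10.3 to 16.8) and Fzd7 at 1.54 CPM (0.663 to 3.03). Ror2 had 3 UMIs there and 3 UMIs in the 22 squamous cells of the esophageal tag over the same limit. The 46 compared columnar cells formed 1 cluster at Leiden resolution 0.5, with the WNT genes and gastric stem markers such as Lgr5 left out of the clustering. Receptor levels could therefore not be set here against states of the stomach epithelium. The study divided its stomach organoid cells into ST-Co1 and ST-Co2.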
